A study of Caenorhabditis elegans with 6 samples.

Results

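Genes with intron clusters are the protein-coding genes of Caenorhabditis elegans in which a cluster of CLIP reads of the RNA-binding protein ADR-1 was annotated by the authors to an intron and to no other location. They were taken from the deposited list of 636 uniquely annotated clusters, which names 363 gene identifiers, and came to 97 clusters in 64 genes. The list holds 290 protein-coding genes in all, of which 232 have a 3' UTR cluster, with 431 such clusters. The choice used annotation only, but the list itself keeps clusters that were enriched in CLIP over input in these same libraries. Enrichment of the members is therefore described here and is not independent evidence of it.

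The study asked where ADR-1 sits on RNA in the living animal. Its 6 libraries came from whole mixed-stage worms of strain HAH59, which carries a 3xFLAG tag on ADR-1, grown at 20 °C on Escherichia coli OP50 and irradiated with ultraviolet light at 3 J/cm2. From each 5 mg lysate, digested for 10 min with 150 units of RNase I, 2% became the size-matched input library and the remainder went to anti-FLAG beads and an on-bead ligation step for double-stranded RNA, giving 3 CLIP and 3 input libraries numbered 1 to 3. All 6 libraries share strain, tag and treatment, so without an untagged strain the RNA touching ADR-1 and the RNA held by the beads cannot be told apart, and whole animals do not show the tissue of origin.

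ADR-1 belongs to the ADAR family, whose members bind double-stranded RNA. In worms the active deaminase is ADR-2, which turns adenosine to inosine within duplexes; ADR-1 has no deaminase activity of its own and affects which adenosines ADR-2 edits. Duplexes form where a transcript holds inverted copies of a repeat, which in worms are common in introns and in 3' UTRs. An intron is present only until the transcript is spliced, so a read in an intron comes from a precursor RNA, from a retained or excised intron, or from another transcript that overlaps it.

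The library totals behind the deposited statistics were 5780874, 5764505 and 5779067 reads for CLIP replicates 1, 2 and 3, and 4161978, 2471589 and 4250986 for the inputs, within the fitting error given with the methods. Whether the nearly equal CLIP totals are the libraries' own depths is not known. No count below 1 occurs in the deposited tables, so that a count of 1 can stand for 0. The scaled log2 ratios below add 1 read to each count, divide CLIP and input by their own library totals, and take the log2 of the quotient. The labels do not say whether the replicates were grown separately, so the p-values computed here cover the spread between these libraries, which may be technical. The authors' deposited p-values compare reads of 1 CLIP and 1 input library within a replicate and cover no spread between libraries.

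Intron clusters were shallow. The median intron cluster held 23, 4 and 21 reads in CLIP replicates 1, 2 and 3, against 83, 20 and 48 for the median 3' UTR cluster. The range over intron clusters was 6 to 120 reads in CLIP replicate 1, 1 to 101 in replicate 2 and 1 to 103 in replicate 3. In the inputs the median was 1 read in every library for both classes, and no intron cluster had more than 3, 3 and 4 reads in input replicates 1, 2 and 3. Input counts of 1 in all 3 inputs were found for 70 of 97 intron clusters (72.2%) and for 155 of 431 3' UTR clusters (36.0%). Over the 3 CLIP libraries together the median cluster had 50 reads in introns and 150 in 3' UTRs, and only 1 of the 97 intron clusters exceeded the median 3' UTR cluster.

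**Figure D1:**
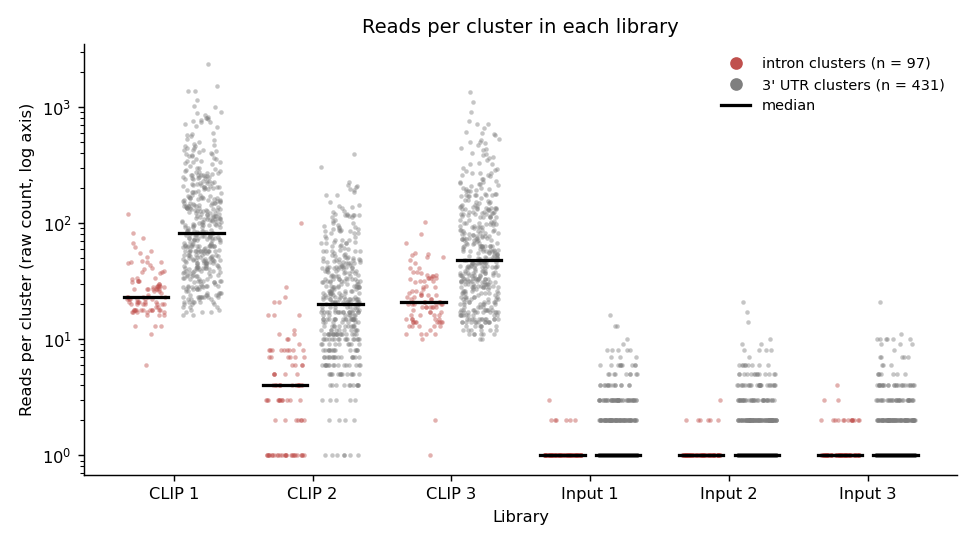
Raw reads per cluster (log axis) in each of the 6 libraries, with a point per cluster for the 97 intron clusters and the 431 3' UTR clusters and a black bar at the median. Intron clusters sit lower than 3' UTR clusters in all 3 CLIP libraries, with medians of 23, 4 and 21 reads, and lie at 1 to 4 reads in the inputs.

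CLIP replicate 2 gave the fewest reads, in introns as in the rest of the list. It held 600 reads over the 97 clusters, against 2793 in replicate 1 and 2475 in replicate 3. Its reads came to 21.5% of those of replicate 1 in introns, 21.1% in 3' UTR clusters and 21.6% over all 636 clusters. A count of 1 was recorded in CLIP replicate 2 for 26 intron clusters (26.8%) and for 7 3' UTR clusters (1.62%). The authors' deposited p-value was under 0.05 for 96, 8 and 95 of the 97 intron clusters in replicates 1, 2 and 3, where the background over all 636 clusters was 99.8%, 46.7% and 99.5%. Most intron clusters, 89 of 97, passed in replicates 1 and 3 only, a pattern that 53.3% of the list shares. Over all 636 clusters, 293 passed in all 3 replicates, 339 in 1 and 3 only, 3 in 1 and 2 only and 1 in 2 and 3 only. Every listed cluster thus passed in more than 1 replicate, so these counts are not independent evidence of reproducibility.

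Passing in all 3 replicates was recorded for 5 intron clusters, against a background of 46.1% of the list, and these lie in tag-234, Y57A10A.14, Y54G11A.3, snx-6 and deg-1. The 3 remaining clusters broke the pattern in another way. A pair in pck-2, which encodes phosphoenolpyruvate carboxykinase of gluconeogenesis, passed in replicates 1 and 2 only, and a cluster in E03H4.11 passed in replicates 2 and 3 only.

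Replicates 1 and 3 were also balanced differently in introns. CLIP replicate 3 held more reads than replicate 1 in 37 of 97 intron clusters (38.1%) and in 27 of 431 3' UTR clusters (6.26%). The median of replicate 3 over replicate 1 was 0.858 in introns and 0.593 in 3' UTRs. Among clusters with at most 100 CLIP reads in all, a limit set after the data were seen, the shares were 33 of 87 intron clusters (37.9%) and 15 of 147 3' UTR clusters (10.2%). The limit does not match depth, as the medians in CLIP replicate 1 were 22 and 34 reads. These shares therefore cannot separate class from depth. With 1 library per replicate number there is no test of the difference between classes, and its relation to the library was not tested.

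**Figure D2:**
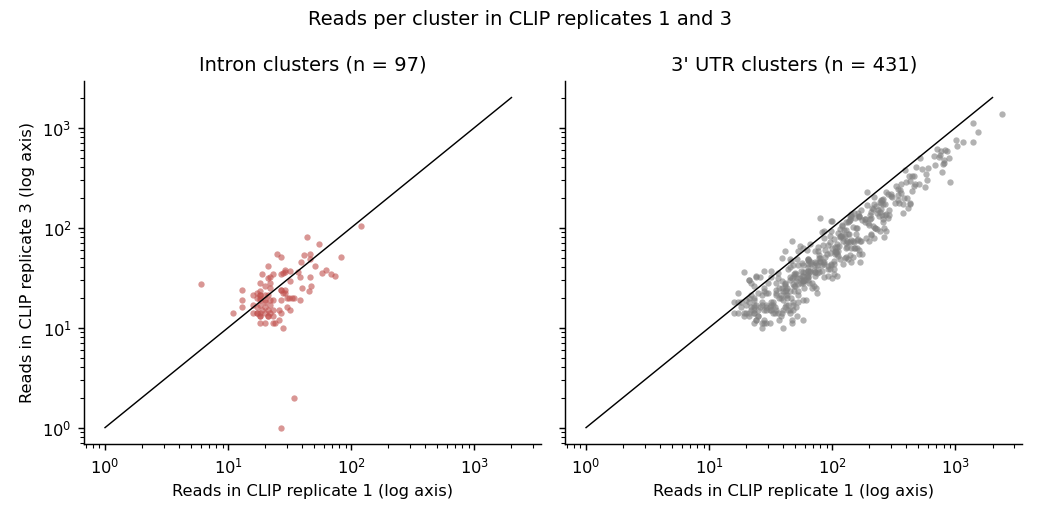
Reads per cluster in CLIP replicate 3 against CLIP replicate 1 (both log axes), with a point per cluster and a line at equal counts, for the 97 intron clusters on the left and the 431 3' UTR clusters on the right. Above the line lie 37 intron clusters and 27 3' UTR clusters.

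In edgeR's quasi-likelihood test on library totals, 97 of 97 intron clusters were higher in CLIP at a Benjamini-Hochberg adjusted p under 0.05, where the background was 97.1% of 736 clusters, so the count says nothing particular about introns. The log2 fold had a median of 3.06, ran from 2.44 to 5.56 with quartiles at 2.79 and 3.55, and the highest adjusted p was 0.0173. The median log2 fold was 4.24 over 3' UTR clusters and 3.84 over all 736. The direction rests on the scaling: with TMM, which sets the typical cluster near 0, no intron cluster was called, 85 of 97 lay below 0 and their median log2 fold was -0.94. The count also rests on the inputs, since without input replicate 1 or input replicate 3 it was 54 or 55. Over all 736 clusters the count then fell from 715 to 599 or 595, so introns are not alone in the drop. Scaled CLIP levels lay wholly above scaled input levels for 59 intron clusters and 411 3' UTR clusters, against a background of 87.9% of the list.

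The scaled log2 ratio of the median intron cluster was 3.05, 0.10 and 2.95 in replicates 1, 2 and 3, and that of the median 3' UTR cluster was 4.54, 1.78 and 3.83. Introns were lower in each replicate, with an average difference of -1.35 ± 0.42 (SD, n = 3; exact two-sided sign-flip permutation p = 0.25, the smallest that 3 replicates allow). In replicate 2 the ratio was below 0 in 47 of 97 intron clusters, against 28 of 431 3' UTR clusters and 88 of all 636. A ratio above 0 in all 3 replicates was found for 48 intron clusters, 403 3' UTR clusters and 546 clusters of the list. The mean ratios of single intron clusters given below depend on replicate 2: without it, 90 of the 97 moved up by more than 1.5-fold, and their median went from 1.92 to 2.92.

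Genes of RNA processing and translation made up 8 of the 64 genes, with 10 clusters. The roles used here were assigned by hand after the gene names were seen. The deepest intron cluster of the list lies in Y54G11A.3 (WBGene00013214), annotated in the files as an RNA helicase, on chromosome II at 14277118 to 14277251 (plus strand). CLIP held 120, 28 and 103 reads there against 1 input read in each replicate, and a second cluster 246 bases downstream had 51, 8 and 41. The mean scaled log2 ratios were 4.45 ± 1.57 and 3.04 ± 1.82 (SD, n = 3), and in both clusters every CLIP level lay above every input level. Both lie near the start of the gene, 7.66% and 12.34% along its 7.36 kb span.

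hrpu-2, a homologue of the nuclear RNA-binding protein hnRNP U, held clusters 10228 bases apart, with 20, 3 and 21 reads in the first and 46, 2 and 48 in the second. The second had the wider spread of the pair, 2.54 ± 2.75 on the scaled log2 scale (SD, n = 3), with replicate 2 near its input and replicates 1 and 3 far above theirs. The other members of the group had 1 intron cluster each. They were nsun-2, an RNA cytosine methyltransferase, cpsf-1 of the cleavage and polyadenylation complex, the double-stranded RNA-binding zinc finger gene zfr-1, the initiation factor gene eif-2gamma, the ribosomal protein gene rpl-3 and Y105E8A.20. Y105E8A.20, annotated as a methionine-tRNA ligase, had the lowest scaled log2 ratio of the 97, 1.25 ± 2.15 (SD, n = 3), from 13, 1 and 16 CLIP reads.

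Among transcription and chromatin genes, 7 genes held 12 intron clusters. crh-1, the worm CREB transcription factor, carried 4 of them within 714 bases of a 36.2 kb gene, at 13.64% to 15.38% of its length. Their reads in CLIP replicates 1, 2 and 3 were 27, 8 and 34 in the first, 29, 1 and 36 in the second, 18, 4 and 28 in the next and 22, 2 and 17 in the last. Replicate 3 was the highest in the first 3 of these, and replicate 2 the lowest in all 4. bet-1, a bromodomain protein that reads acetylated histones, had a pair 204 bases apart with 78, 15 and 46 reads in all, and epc-1, a homologue of Enhancer of Polycomb, a pair 1942 bases apart with 41, 5 and 29. The single clusters lay in hpl-2, a heterochromatin protein 1 homologue, nhr-114, a nuclear hormone receptor gene, sam-10, annotated as a single-stranded DNA-binding protein homologue, and sptf-3, an SP-family transcription factor gene. That of sptf-3 was among the 3 lowest of the list at 1.29 ± 2.17 (SD, n = 3).

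The gene with the most intron clusters was spsb-1, whose product has a SPRY domain and a SOCS box and so belongs to a family of substrate adaptors of ubiquitin ligases. Its 6 clusters on chromosome II ran from 15205033 to 15217548 on the plus strand, 25.34% to 62.97% along a gene of 33.0 kb. Summed over them, the CLIP libraries held 126, 18 and 136 reads and the inputs 6, 7 and 6. No single cluster stood out: their scaled log2 ratios ranged from 1.31 to 2.29, and 3 of the 6 had 1 read in CLIP replicate 2. The ubiquitin group also held ubc-13, a ubiquitin-conjugating enzyme gene with a ratio of 1.28 ± 2.20 (SD, n = 3), and T25D1.3, annotated as an F-box gene, with 46, 6 and 32 reads.

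M01H9.3, an uncharacterised gene on chromosome IV, carried 5 clusters in 3 places on the minus strand. Its last cluster by transcript order, 4471832 to 4471944, had 44, 7 and 80 reads in CLIP, 1, 3 and 3 in input, and a scaled log2 ratio of 2.56 ± 2.41 (SD, n = 3). Its total of 140, 20 and 164 CLIP reads came close to that of Y54G11A.3, which had 171, 36 and 144 from 2 clusters. pqn-87, annotated with a MATH domain, sydn-1, a gene of neuronal development, and Y51F10.7 had pairs of 31, 10 and 28, 72, 15 and 47, and 53, 8 and 39 reads. The pair in Y51F10.7 also lies inside the RefSeq span of trpp-10, so its reads could belong to either gene, as the RefSeq table used gives no strand.

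**Figure D3:**
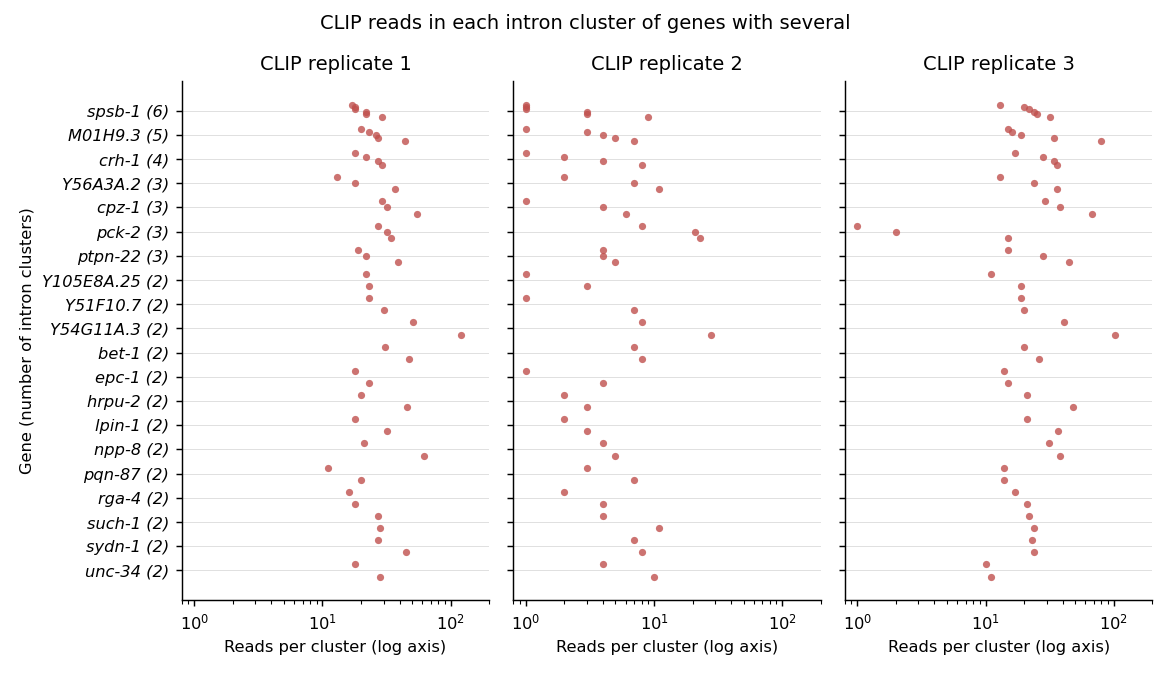
Reads per cluster (log axis) in CLIP replicates 1, 2 and 3 for the 20 genes with at least 2 intron clusters, with a point per cluster and the number of clusters beside each gene. Replicate 2 is lowest for most genes, and pck-2 is the exception, with 2 of its 3 clusters lowest in replicate 3.

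Signalling genes made up 7 genes with 11 clusters and the lowest median scaled log2 ratio of the groups, 1.71, where the highest was 2.21. ptpn-22, a tyrosine phosphatase gene, had 3 clusters with 80, 13 and 88 CLIP reads in all, and the pair nearest to each other were 15 bases apart. rga-4 had 2 clusters 1127 bases apart, with 34, 6 and 38 reads in all. Y105E8A.25, which carries a DH domain, had 2 clusters 32908 bases apart in a 49.4 kb gene, the widest gap of the list. daf-2, the insulin receptor of the worm, sos-1, the exchange factor that activates Ras, aakg-1, a regulatory subunit of AMP-activated kinase, and F14H3.12, annotated as a serine/threonine kinase, had 1 each. daf-2 had 17, 1 and 14 reads, a ratio of 1.31 ± 2.20 (SD, n = 3), and a further cluster outside the 97 whose annotated location is not an intron alone.

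Membrane and secretory genes were the largest group, with 12 genes and 16 clusters. deg-1 (WBGene00000950), a degenerin channel gene of neurons, had 74, 16 and 33 CLIP reads against 1 input read in each replicate, on chromosome X at 7772666 to 7772708, and a scaled log2 ratio of 3.42 ± 1.46 (SD, n = 3). snx-6 (WBGene00013354), a sorting nexin gene, had 38, 16 and 32 reads and 3.09 ± 1.07 (SD, n = 3). In both, every CLIP level lay above every input level. Y56A3A.2, annotated as the endopeptidase S2P, had 3 clusters with 68, 20 and 73 reads in all.

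E03H4.11, annotated as a hexosyltransferase, was the only intron cluster in which CLIP replicate 2 held the most reads, with 6, 101 and 27. The cluster is 18 bases long by its deposited coordinates, and its scaled log2 ratio was 2.85 ± 1.34 (SD, n = 3), with replicate 1 the lowest.

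Clusters of cpz-1 and inx-11 lie at small RNA genes, with piRNA genes not examined. cpz-1, a cathepsin Z-like protease gene, had 3 clusters, with 55, 6 and 68 reads in the deepest. Its cluster farthest along the chromosome, with 32, 1 and 29 reads, overlaps the RefSeq snRNA gene F32B5.9 by 93 bases. inx-11, a gap junction innexin gene, had 82, 10 and 51 reads in a cluster whose deposited start and end differ by 2, and which, read as deposited, begins 1 base past the end of the RefSeq snoRNA gene W04D2.7. The host gene and the small RNA cannot be told apart as the source of these reads. The remaining genes of the group had 1 cluster each, and bli-4, a proprotein convertase gene, sec-23 of the COPII vesicle coat and gly-5, a glycosyltransferase gene, were among them.

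Metabolic and mitochondrial genes numbered 11, with 14 clusters, and none had a 3' UTR cluster. Such clusters were few throughout, in 13 of all 64 genes and in 1 to 3 genes of each other group. pck-2 carried 3 intron clusters with unlike replicates. The first had 34, 23 and 2 CLIP reads and the second, 40 bases on, had 27, 21 and 1, whereas the last, 1072 bases further, had 32, 8 and 15. In the first and second, replicate 3 equalled its input counts of 2 and 1, and the scaled levels of CLIP and input overlapped. The deepest cluster of the gene, outside the 97 because its annotated location is not an intron alone, had 64, 9 and 24 reads, with replicate 2 the lowest. lpin-1, a lipin phosphatidate phosphatase gene, had a pair 79 bases apart with 50, 5 and 58 reads in all. gln-3, a glutamine synthetase gene, had 41, 1 and 53 reads, with replicates 1 and 3 high and replicate 2 at its input. The group also included mppa-1, a subunit of the mitochondrial processing peptidase, spg-7, a mitochondrial protease gene, and mboa-6, an acyltransferase gene.

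Genes of cell division and the cytoskeleton numbered 6, with 9 clusters and the highest median scaled log2 ratio of the groups at 2.21. The group medians, from 1.71 to 2.21, lay closer together than the replicates of a single intron cluster, whose median SD was 1.86. mcm-2, a subunit of the replicative helicase, had 46, 8 and 55 CLIP reads and 2.94 ± 1.73 (SD, n = 3). npp-8, a nucleoporin gene, had clusters 5910 bases apart, of 62, 5 and 38 and of 21, 4 and 31 reads, and the second overlaps the RefSeq span of Y41D4B.14. such-1, a subunit of the anaphase-promoting complex, had a pair with 55, 15 and 46 reads in all. unc-34, the Enabled homologue that acts on actin, had a pair 76 bases apart with 46, 14 and 21. sas-1, a centriole gene, and zwl-1, a kinetochore gene, had 1 cluster each.

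Of the genes without a role assigned, Y57A10A.14 and tag-234 gave the most reads in a single cluster after M01H9.3. Y57A10A.14 had 58, 16 and 35 CLIP reads and 3.33 ± 1.32 (SD, n = 3), on chromosome II at 12187111 to 12187210. tag-234 had 68, 21 and 34 reads and 3.52 ± 1.21 (SD, n = 3). Input counts were 1 throughout for both, and no CLIP level fell into the input range.

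Clusters per gene were few. Of the 64 genes, 44 had 1 intron cluster, 13 had 2, 4 had 3, and crh-1, M01H9.3 and spsb-1 had 4, 5 and 6. The 20 genes with several held 53 of the 97 clusters. Neighbouring intron clusters of a gene were a median of 286 bases apart (quartiles 79 and 1320, 33 pairs), and 12 of the 33 gaps (36.4%) were under 200 bases. For 3' UTR clusters the median gap was 60 bases, and 83.9% of 199 gaps were under 200. The 3' UTR class itself confines its clusters to a stretch at the gene end, so these gaps do not compare like with like. In 4 genes, sydn-1, pqn-87, unc-34 and lpin-1, all intron clusters lay within 200 bases of each other.

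The host genes were long. The RefSeq span had a median of 9.81 kb over the 64 genes, 5.12 kb over the 219 genes with 3' UTR clusters and no intron cluster, and 2.01 kb over all 19971 protein-coding genes. A longer gene holds more intron, and this is not corrected for. Genes with several clusters and with 1 had close medians, 10.0 and 9.67 kb. Each of the 97 clusters lay inside the span of its own gene, at a median of 43.2% of the way from start to end (quartiles 21.6% and 63.0%), and 56 lay nearer the start than the end. 3' UTR clusters lay at a median of 92.8%, a place near the end that follows from their class. With piRNA genes left out of the search, 7 intron clusters overlapped the span of another RefSeq gene. They lie in 6 genes, Y51F10.7, cpz-1, npp-8, spg-7, ads-1 and nhr-114, and the other gene was protein-coding in 6 of the 7. Intron clusters were 99 bases long at the median (quartiles 75 and 121), and 3' UTR clusters 85.

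A 3' UTR cluster was present in 13 of the 64 genes, and 51 had none. The 13 genes held 25 intron and 31 3' UTR clusters, and were nsun-2, scm-1, wac-1.1, sptf-3, tag-234, sam-10, spsb-1, crh-1, Y56A3A.2, sas-1, unc-34, rga-4 and sos-1. Of the 20 genes with several intron clusters 5 were among them, and of the 44 with 1, 8 were. In 12 of the 13 genes the nearest intron and 3' UTR clusters were between 1039 bases (rga-4) and 30493 bases (crh-1) apart. In none of the 5 genes whose intron cluster passed in all 3 replicates did a 3' UTR cluster pass in all 3. Only tag-234 of these had a 3' UTR cluster, so the outcome was fixed for the others.

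Within these genes the 3' UTR had the higher ratio in most. Taking each gene's mean scaled log2 ratio over its clusters of a class, the 3' UTR was higher in 10, 11 and 11 of the 13 genes in replicates 1, 2 and 3, and higher in all 3 replicates in 9. The median of intron minus 3' UTR over genes was -1.54, -2.02 and -1.76, or -1.77 ± 0.24 on average (SD, n = 3; exact two-sided sign-flip permutation p = 0.25, the smallest possible).

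The widest difference was that of sos-1. Its 3' UTR cluster on chromosome V (4517282 to 4517574) had 595, 174 and 398 CLIP reads, and its intron cluster, 3159 bases away, had 30, 1 and 16, a difference of -4.42 ± 0.92 on the scaled log2 scale (SD, n = 3). nsun-2 had 251, 49 and 134 reads in the deeper of its 3' UTR clusters and 17, 3 and 20 in its intron, and crh-1 had 198, 40 and 107 reads in its 3' UTR cluster, more in replicates 1 and 2 than its 4 intron clusters together (96, 15 and 115). The difference was -2.74 ± 0.10 for nsun-2 and -2.69 ± 0.61 for crh-1 (SD, n = 3). In these 3 genes the 3' UTR was higher in 3 of 3 replicates.

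In spsb-1, 5 3' UTR clusters held 350, 94 and 163 reads against 126, 18 and 136 in its 6 intron clusters, so that replicates 1 and 2 differed more than replicate 3. The difference of means was -1.51 ± 1.17 (SD, n = 3). unc-34 also had 5 3' UTR clusters, with 480, 159 and 207 reads, and a difference of -1.93 ± 0.16 (SD, n = 3). sas-1 at -2.49, wac-1.1 at -1.98 and sam-10 at -1.77 lay on the same side in 3 of 3 replicates, as did Y56A3A.2 at -0.68.

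The remaining 4 genes did not keep one direction or went the other way. scm-1, a secretory carrier membrane protein gene, differed by -0.59 ± 1.09, sptf-3 by -0.25 ± 0.51 and rga-4 by 0.04 ± 0.51 (SD, n = 3), all within the spread between replicates. tag-234, an uncharacterised gene on chromosome II, was the exception. Its intron cluster at 5865099 to 5865167 had 68, 21 and 34 reads, and its 3' UTR cluster at 5865003 to 5865051 had 23, 7 and 11, a difference of 1.70 ± 0.29 (SD, n = 3) with the intron higher in 3 of 3 replicates. The gene is 1.36 kb long and the clusters are 48 bases apart, with the one annotated as 3' UTR upstream of the one annotated as intron on the plus strand.

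**Figure D4:**
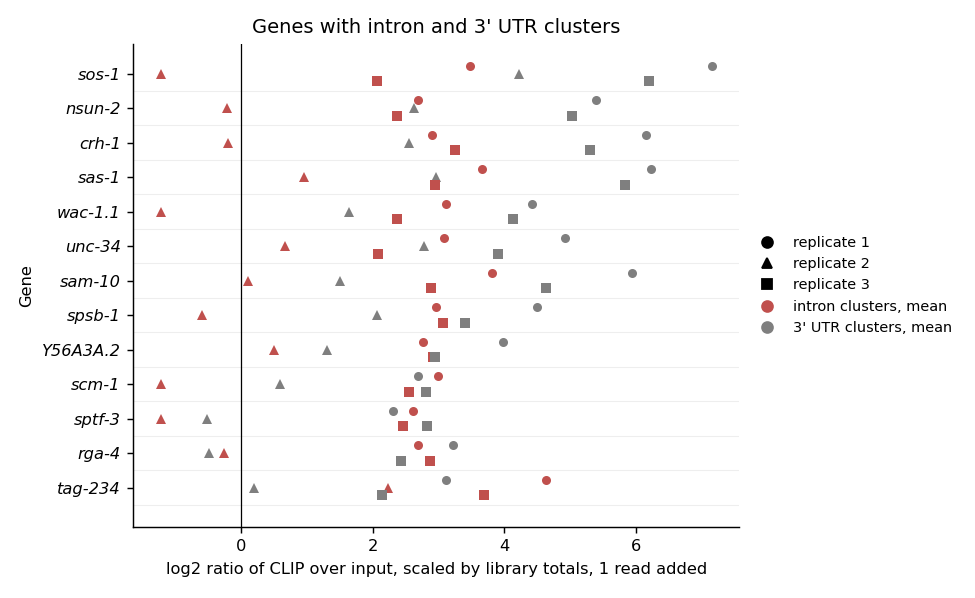
Mean scaled log2 ratio of CLIP over input for the intron clusters and the 3' UTR clusters of the 13 genes that have both, with a symbol for each replicate and genes ordered by the mean difference. The 3' UTR lies to the right of the intron in all 3 replicates in 9 genes, and tag-234 at the bottom shows the reverse.

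Intron clusters lay mostly toward chromosome ends. Dividing each chromosome into 3 equal parts, with the end of the last RefSeq gene taken as its length, 87 of 97 clusters (89.7%) and 57 of 64 genes (89.1%) fell in the outer parts, the arms. The share was 83.3% for 3' UTR clusters, 79.9% for all 636 clusters and 62.2% for all RefSeq protein-coding genes. In worms, repeats are known to be denser on the arms of autosomes than in their centres. Clusters of 1 gene share a position, so the share over genes is the one to compare, and for genes with 3' UTR clusters it was 75.9%.

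The side differed by chromosome. On chromosome IV, 14 of 16 intron clusters lay on the left arm, in 6 of the 8 genes, among them M01H9.3, ptpn-22 and npp-8. On chromosome II, 14 of 16 lay on the right arm and none on the left. These 14 lie in 7 of the 9 genes, with 6 of them in spsb-1. Chromosome III had 16 of 21 on the right arm, in 9 of 14 genes, and none in the middle. Chromosome I had 18 of 28 on the left, in 13 of 20 genes. The same side held the most 3' UTR clusters on chromosomes I, II and III, so it is not particular to introns there. Their left, middle and right counts were 67, 20 and 36 on I, 14, 19 and 29 on II, and 52, 15 and 73 on III. 3' UTR clusters of chromosome IV did not show the same side, with 7 on the left arm, 11 in the middle and 15 on the right. Chromosome X held 2 intron clusters, those of deg-1 and T25D1.3. The densest 1 Mb stretch was between 11 and 12 Mb of chromosome III, with 10 intron clusters in 4 genes, such-1, crh-1, Y56A3A.2 and wah-1. The neighbouring stretch from 12 to 13 Mb was the densest for 3' UTR clusters, with 38 in 13 genes.

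**Figure D5:**
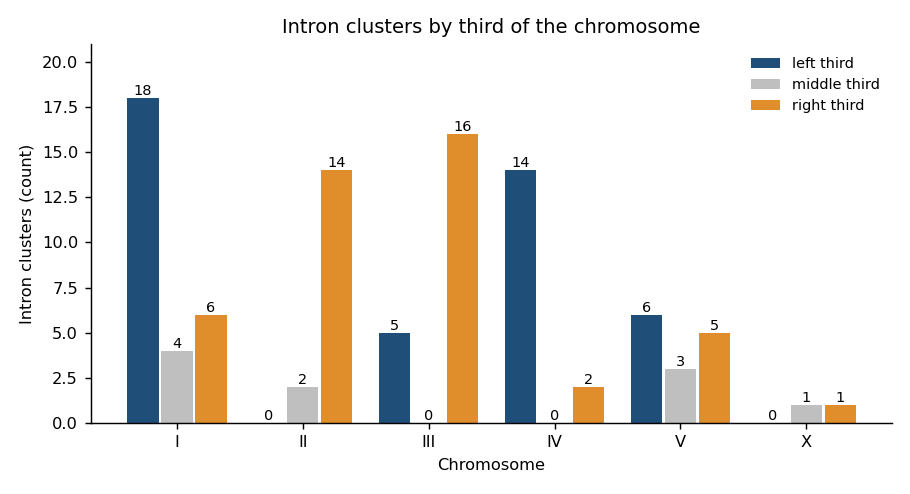
Number of intron clusters in the left, middle and right of 3 equal parts of each chromosome. Chromosome IV has 14 on the left, chromosome II has 14 on the right and none on the left, and chromosome X has 2 in all.

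Of 12 genes listed as ADAR substrates of the worm, of which 11 matched a RefSeq symbol, none had an intron cluster. Among them 7 had a 3' UTR cluster and 8 had a cluster of any class. Of the 290 protein-coding genes with a cluster, 64 and 232 had an intron and a 3' UTR cluster. All of those 290 have a cluster, unlike the 12, so the shares are not comparable. The list of 12 was written with earlier results of these data known, and its counts support nothing further.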

How the data were processed

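Per the submitters' processing notes, the tools included fastp 0.21.0 and STAR 2.7.10b, with ce11 (WBcel235) as the genome build. CLIPPER called the clusters and WormBase annotated them, per the file captions. For every cluster the authors deposited a raw read count in each library and, per replicate, a chi-square score, a p-value and a log2 fold. Positions are those deposited, and no source used here states if they are 0-based or 1-based.

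The total of each library was estimated from the deposited chi-square scores (standard errors of 0.0107%, 0.238% and 0.012% for replicates 1, 2 and 3) and tested on simulated data. Scaled log2 ratios used a pseudocount of 1. CLIP was compared with input over all 736 reproducible clusters by edgeR 4.0.16 in R 4.3.3 (glmQLFit, glmQLFTest, library totals as scaling, no filter, no replicate block, Benjamini-Hochberg threshold 0.05). Same-numbered libraries are paired, since the labels' protocols take input and CLIP from a shared lysate; their deviations from group means had correlations of 0.309, 0.107 and 0.0102. Differences between classes were computed per replicate and tested by an exact permutation test in scipy 1.17.1. Gene spans and neighbours came from RefSeq genes of WBcel235, with piRNA genes left out of the neighbours. All 64 genes matched by name or locus tag. No sequence is printed, as no genome was used here.

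Named with values are genes with several intron clusters, with a 3' UTR cluster, with p under 0.05 in all 3 replicates, the 10 highest and the 3 lowest by scaled log2 ratio. Other members appear within their groups. The members, lists and tests were chosen with earlier results of these data known.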

Additional observations from a re-analysis of the deposited data

How the results depend on the processing

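The count of intron clusters called higher in CLIP and their median log2 fold depended on scaling and on the inputs. With TMM and with the size factors of DESeq2 1.42.0 the count was 0 in each, with 2 and 0 at an unadjusted p under 0.05, and the median log2 fold was -0.94 and -0.81; these scalings moved the median of all 736 clusters from 3.84 to -0.26 and -0.17. The filterByExpr filter left 6 intron clusters to test, and 6 were called, where the background was 450 of 463 clusters. Taking input counts of 1 as 0 raised the median to 6.38, with 96 called. Leaving out 1 library gave 54 to 97 calls and medians of 2.71 to 3.48. The count was 54 without input replicate 1 and 55 without input replicate 3, where 599 and 595 of all 736 clusters were called. DESeq2 with library totals and the uniquely annotated list alone each gave 97 calls. With the replicate number as a block, 97 were called, the median was 3.19, and no call on an intron cluster changed. The difference between intron and 3' UTR medians ran from -1.58 to -1.19, and that within genes from -1.89 to -1.65, when 1 replicate was left out. Other planned settings gave -1.37 to -1.11 and -2.0 to -1.66. The -1.66 used only clusters with input counts of 1 in all 3 inputs and rested on 6 of the 13 genes. Of 2 settings chosen after seeing the data, no pseudocount gave -1.30 for the former and -1.86 for the latter. Leaving out clusters at a small RNA gene gave -1.35 for the former. A limit of 100 CLIP reads, also chosen after seeing the data, gave -0.42 and -0.68, the latter from 6 of the 13 genes. The limit removes 284 of 431 3' UTR clusters and 10 of 97 intron clusters by the numerator of the ratio, so smaller gaps follow from its construction. Counting only clusters that passed in all 3 replicates left 5 intron genes, 0 of them with such a 3' UTR cluster. Only tag-234 of these genes had any 3' UTR cluster in the list. Taking 3' UTR clusters from all reproducible clusters gave 15 in place of 13. With each chromosome in 4 equal parts and the outermost 2 as arms, 81.4% of intron clusters lay on arms, against 44.7% of protein-coding genes. The mean scaled log2 ratio of single clusters moved by more than 1.5-fold in 49, 90 and 34 of 97 clusters without replicate 1, 2 or 3, and in 70 and 87 with pooled inputs and with no pseudocount. The sos-1 cluster ran from 0.42 without replicate 1 to 2.77 without replicate 2, and that of Y105E8A.20 from 0.56 without replicate 3 to 2.49 without replicate 2; none changed sign. Input counts of 1 to 4 limit the precision of every ratio.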
